A study of Gallus gallus with 12 samples.

Results

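The optic fissure margin (OFM) of the chicken embryo was followed from Hamburger-Hamilton (HH) stage 30 to stage 34 through its open chromatin. The members are all peaks of the OFM lists at HH30 and HH34, which were chosen by their tissue label and not by any measured value. They number 213792 of the 421414 peaks in the 4 lists of the series. The OFM list at HH30 holds 108689 peaks and the one at HH34 holds 105103. Each list stands for 3 libraries of wildtype Hy-Line chicken tissue, and each library was made from tissue pooled from 10 embryos and from 50000 counted cells. The labels name no treatment and no altered allele at either stage. The dorsal retina of the same stages, 207622 peaks, was used only where it shows how the fissure margin differs or goes along.

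The optic cup forms with a groove along its ventral side, the optic fissure, through which blood vessels enter the eye. The cells of its margins meet, lose the basement membrane between them and fuse into a continuous epithelium, and a failure of this step leaves a gap known as coloboma. Chromatin that the transposase Tn5 can reach marks promoters, enhancers and other sites bound by proteins, so a change of open sites between stages lists candidate regulatory sequences of a tissue as it matures. Retinal cells also leave the cell cycle and differentiate in this period of development.

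The tissue was dissected by hand in bulk. A weaker peak can mean fewer cells with the site open or a less open site in each cell, and these cannot be told apart. Markers of the fissure margin were not analysed here, because no gene annotation in the coordinates of the lists was used, and no gene is named. Peaks of the 3 libraries of a group were called jointly by the authors, so a stage is 1 list with no value per library. No difference below can be held against replicate spread, and all of them are descriptions of these lists. The stages also come from different embryos, so stage and embryo set cannot be told apart.

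Most open sites were present at both stages, and most of them as a single peak in each. A peak was matched when it overlapped a peak of the other stage by at least 1 bp. One-to-one pairs numbered 84070, which is 77.3% of the HH30 list and 80.0% of the HH34 list. HH30 peaks without a match are called lost and HH34 peaks without a match are called gained. The lost peaks numbered 17688 and the gained peaks 13798, and the shares of peaks called by these rules were 16.3% of HH30 and 13.1% of HH34. With both lists held to their 105103 highest area scores, 15483 peaks were lost and 15041 gained. Lists of equal length bring these counts together by arithmetic, since the surplus of lost peaks is mostly the difference in list length. A further 2496 HH30 peaks (2.30%) were split into several HH34 peaks, and 1949 HH34 peaks (1.85%) joined several HH30 peaks. Only 171 peaks of each list belonged to sites with several peaks at both stages.

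In bases the stages were closer than in peak counts. The HH30 peaks covered 65.4 Mb and the HH34 peaks 64.3 Mb, and 56.2 Mb were open at both stages. This shared part is 86.0% of the HH30 bases and 87.4% of the HH34 bases. Of the 9.14 Mb open at HH30 alone, 4.38 Mb lay in lost peaks and 4.76 Mb in peaks that had a match. The latter lay at the edges of peaks or in gaps between the parts of a split peak. At HH34 alone 8.08 Mb were open, with 4.06 Mb in gained peaks and 4.02 Mb at edges or in gaps between parts that joined. Roughly as much open sequence thus came and went within matched sites as by whole peaks.

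Few peaks lay near the limit of the 1 bp rule, although stricter rules of matching left more peaks unmatched. The smallest overlap of a matched HH30 peak was 8 bp, and 1 HH30 peak and 2 HH34 peaks were matched by 50 bp or less. No unmatched peak of either stage lay within 50 bp of a peak of the other, and the smallest distance was 74 bp for a lost and 73 bp for a gained peak. A distance of at most 200 bp was found for 1427 lost and 1211 gained peaks. Lost peaks lay a median of 2678 bp from the nearest HH34 peak, with quartiles of 738 and 7378 bp. Gained peaks lay nearer, a median of 1624 bp from the nearest HH30 peak, with quartiles of 555 and 4647 bp. No peak of the other stage within 1000 bp was found for 12390 lost peaks (11.4% of HH30) and 8502 gained peaks (8.09% of HH34).

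Lost and gained sites were mostly weak and narrow. The area score, the peak caller's summed signal over a peak, has a smallest value just above 200 in these lists, and it was below 400 in 61.8% of lost and 61.0% of gained peaks. In one-to-one pairs that share was 11.6% at HH30 and 14.4% at HH34. The median −log10 q at the summit was 4.36 in lost peaks and 4.16 in gained peaks, against 9.21 and 8.64 in the HH30 and HH34 peaks of pairs. Gained peaks were a little wider than lost ones, with a median of 242 bp (quartiles 184 and 342 bp) against 206 bp (quartiles 164 and 301 bp).

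When each list was cut into 10 equal parts by area score, the share of lost peaks fell from 57.4% in the lowest part to 9.30% in the fifth and 0.248% in the eighth. The share of gained peaks fell from 44.5% to 8.61% and 0.428% in the same parts. Lost peaks were thus more frequent than gained ones at the low end, and this order turned around in the upper parts. The part next to the highest held 1 lost and 10 gained peaks, and the highest part held 0 lost and 1 gained peak. Width showed the same. Of peaks under 200 bp, 43.3% of those at HH30 were lost and 25.4% of those at HH34 were gained. Of peaks of 1000 bp or more, 14 of 17977 HH30 peaks (0.0779%) were lost and 143 of 17731 HH34 peaks (0.806%) were gained.

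**Figure D1:**
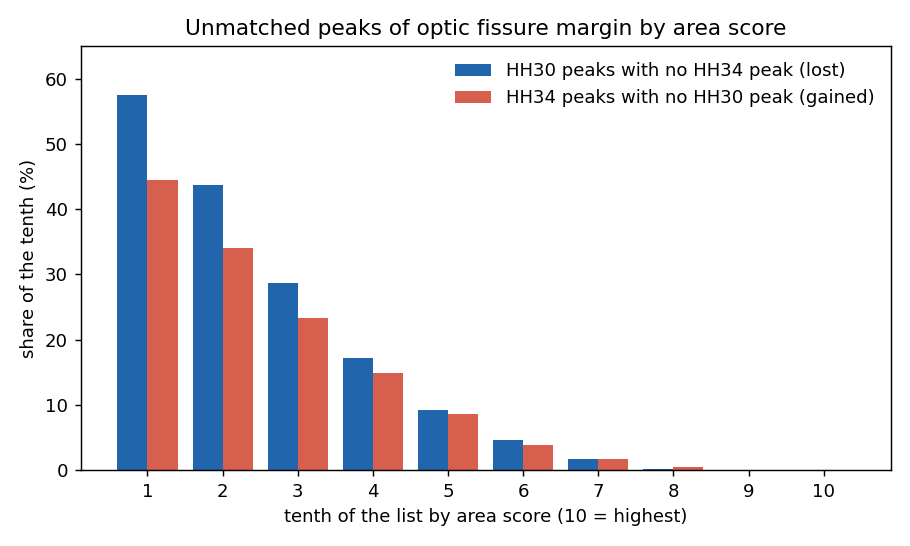
Share of fissure margin peaks without a match at the other stage, in %, in each of 10 equal parts of a list ordered by area score (10 = highest). Blue bars are lost HH30 peaks, from 57.4% in the lowest part to 0 in the highest, and red bars are gained HH34 peaks, from 44.5% to 0.00951%.

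Strong sites without any call at the later stage were few. Of the upper 50% of the HH30 list by area score, 706 peaks were lost, and in the top 25% only 8. These 8 had −log10 q between 9.84 and 14.1 and lay 1263 to 45283 bp from the nearest HH34 peak. Chromosomes 1 to 5 held 4 of them, chromosomes 6 to 10 held 2, and 1 each lay on chromosomes 11 to 33 and on Z. In that order these are 0.0312%, 0.0437%, 0.0118% and 0.0762% of the top 25% peaks there, from very small counts. A dorsal peak at HH30 overlapped 7 of the 8, and no dorsal peak at HH34 overlapped any. The dorsal retina thus had no peak at these sites at HH34 either.

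The strongest lost peak lay on chromosome 1, positions 16644647 to 16645701, with its summit at 16645109. It was 1055 bp wide, ranked 17705 of the HH30 list and had a −log10 q of 14.1, and the nearest HH34 peak was 7589 bp away and only 160 bp wide. The dorsal list at HH30 had a weaker peak there, at rank 50014 with a −log10 q of 6.07. The site was thus a well supported peak in the HH30 fissure margin and had no call at HH34 in either tissue.

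The next lost peaks followed the same course. A peak on chromosome 7 (5981447 to 5982094, rank 23999) had a −log10 q of 13.8, and its nearest HH34 neighbour, 21074 bp away, was a strong peak at rank 7355. A peak on chromosome 12 (15936961 to 15938216, rank 24470, −log10 q 9.84) was the closest of these to an HH34 peak, at 1263 bp. A peak on chromosome 2 (75582041 to 75583124, rank 24871, −log10 q 10.2) had no dorsal peak at either stage, which sets it apart from the other 4. The last was a second site on chromosome 7 (176383 to 176992, rank 24987, −log10 q 11.4), where the dorsal HH30 peak stood higher, at rank 19322.

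In the upper 50% of the HH34 list 633 peaks were gained, fewer than the 706 lost, but the order was the reverse among the strongest sites. In the top 25% of the HH34 list 31 peaks were gained, of which 17 lay on chromosomes 11 to 33, 10 on chromosomes 1 to 5 and 4 on chromosomes 6 to 10. In that order these are 0.193%, 0.0843% and 0.0917% of the top 25% peaks there. The median width of the 31 was 1122 bp, against 766 bp for the 8 strong lost peaks, while their median −log10 q was lower, 9.40 against 11.5. Their rank thus came more from width than from summit height. An HH30 peak lay within 166 bp of the nearest of them, and 18 of the 31 had none within 1000 bp. Both dorsal lists had a peak at 22 of the 31 sites and the HH34 dorsal list alone at the other 9.

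The strongest gained peak, on chromosome 1 (88612135 to 88619388), was 7254 bp wide, ranked 9182 at HH34 and had a −log10 q of 8.11. That summit value stood at percentile 53.1 of its list, whereas the area score stood at percentile 91.3. The gained peak on chromosome 33 (3577762 to 3580538, rank 14162, 2777 bp) and the one on chromosome 27 (356648 to 359467, rank 16560, 2820 bp) were of the same broad and low kind, with −log10 q of 9.40 and 8.11. A narrower and higher kind was found on chromosome 11 (19661293 to 19662890, rank 11504, 1598 bp) and on chromosome 28 (3718924 to 3719967, rank 16720, 1044 bp), both with a −log10 q of 14.1. All 5 sites had dorsal peaks at both stages, and all 5 ranked higher in dorsal retina at HH34 than at HH30. At the chromosome 11 site the dorsal rank went from 82749 to 5489 and at the chromosome 28 site from 33410 to 8218.

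The dorsal lists, which played no part in calling peaks lost or gained, separated these classes. Of the lost fissure margin peaks, 41.8% had a dorsal peak at HH30 alone, 0.763% at HH34 alone, 9.01% at both stages and 48.4% at neither. Of the gained peaks, 46.4% had a dorsal peak at HH34 alone, 2.36% at HH30 alone, 34.6% at both stages and 16.7% at neither. A dorsal peak at the opposite stage alone was also rare over the whole lists, at 1.48% of all HH30 peaks for HH34 alone and 6.27% of all HH34 peaks for HH30 alone. Of all HH30 peaks, 12.1% had a dorsal peak at HH30 alone, 75.8% at both stages and 10.5% at neither. Of all HH34 peaks, 7.45% had one at HH34 alone, 81.3% at both stages and 5.03% at neither. The whole lists were stronger, with area scores below 400 in 19.9% of HH30 and 20.5% of HH34 peaks. Among lost and gained peaks it was 61.8% and 61.0%. Dorsal overlap was not compared at like area score, so these contrasts also hold differences in peak strength. In dorsal retina itself, 16.3% of HH30 peaks were lost and 12.6% of HH34 peaks were gained.

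The classes differed in one respect. Lost peaks were more often without any dorsal peak, and gained peaks were more often at sites that the dorsal retina had open at both stages. The whole HH30 and HH34 lists differed in the same direction, by fewer percentage points. In the upper 50% of the lists by area score, 516 of 706 lost peaks (73.1%) had a dorsal peak at HH30 alone and 59 (8.36%) at both stages. Of 633 gained peaks in that part, 196 (31.0%) had one at HH34 alone and 429 (67.8%) at both stages. At most of the stronger gained sites, the HH30 fissure margin list was therefore the only one of the 4 without a peak. Of the matched peaks in that part, 96.3% at HH30 and 98.9% at HH34 had dorsal peaks at both stages. Over all scores it was 88.3% of the HH30 peaks in one-to-one pairs.

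**Figure D2:**
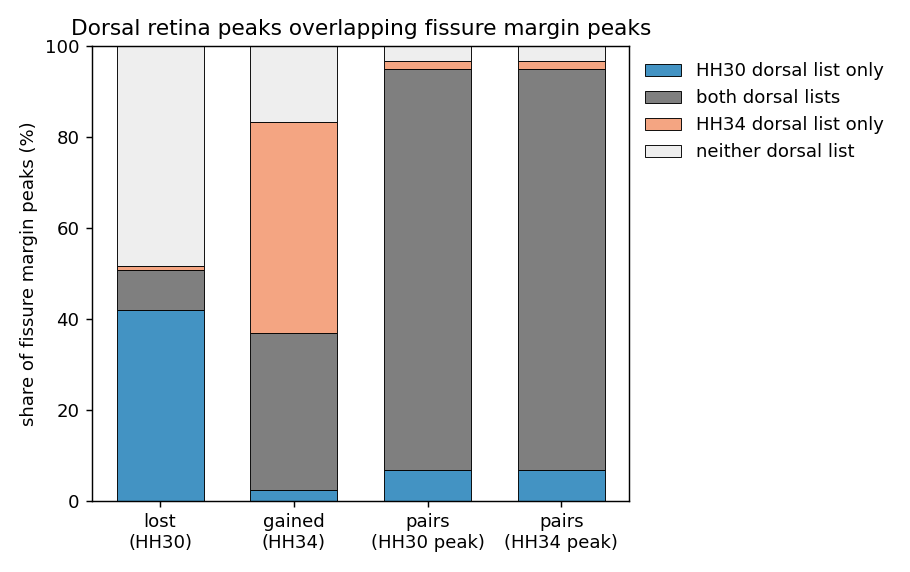
Share of fissure margin peaks, in %, that overlap a peak of the HH30 dorsal list only, both dorsal lists, the HH34 dorsal list only or neither, for lost peaks, gained peaks and the HH30 and HH34 peaks of one-to-one pairs. Both dorsal lists cover 9.01% of lost, 34.6% of gained and 88.3% of paired HH30 peaks.

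Sites present at both stages mostly kept their place. Ranks were turned into percentiles of each list, with 100 for the highest area score. Across the 84070 pairs, Spearman's rho of the percentiles was 0.887, a description across peaks that share their libraries. The shift from HH30 to HH34 had a median of −0.87 points with quartiles of −7.25 and 3.52, and 66.4% of pairs moved by less than 10 points. The summits hardly moved, with a median distance of 2 bp. In 33.7% of pairs the summits were at the same base and in 91.3% at most 50 bp apart, and 2557 pairs (3.04%) had summits over 200 bp apart.

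A shift of at least 25 points was found upward in 3367 pairs (4.00%) and downward in 4048 pairs (4.82%). Rising pairs went from a median percentile of 16.3 to 53.0, and falling pairs from 51.7 to 15.1. Of rising pairs 98.6% started in the lower 50% of the HH30 list, and 98.6% of falling pairs ended in the lower 50% of the HH34 list. The scale favours this, since no rise of 25 points can start above percentile 75 and no such fall can end above it. Pairs below percentile 25 at HH30 had a median shift of 6.96 points, and those below it at HH34 one of −11.0. Pairs low at 1 stage thus tended to stand higher at the other. None of the 24169 pairs that started in the top 25% could rise by 25 points, and 208 of them fell that far. The −log10 q at the summit, a second value of the same calls, was higher at HH34 in 3363 of the 3367 rising pairs and in 1 of the 4048 falling pairs. Over all pairs it was higher at HH34 in 35166 (41.8%). Coming from the same calls, it is no separate support for the shifts.

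**Figure D3:**
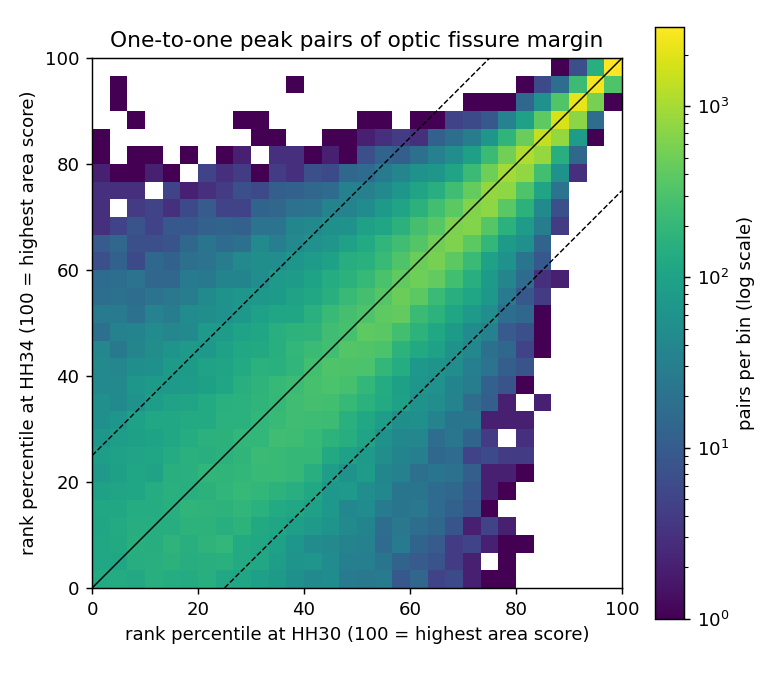
Rank percentile by area score at HH30 (x axis) and HH34 (y axis) of the 84070 one-to-one pairs, with the number of pairs per bin on a log colour scale. The solid line marks equal percentiles and the dashed lines a shift of 25 points, beyond which 3367 pairs lie above and 4048 below.

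The dorsal retina shifted the same way at these sites. A dorsal one-to-one pair at the same place was found for 2757 rising pairs (81.9%) but only for 1721 falling pairs (42.5%), against 84.0% of all pairs. Where it existed, the dorsal shift was upward in 96.8% of rising pairs, with a median of 19.4 points (quartiles 12.3 and 27.8). At falling pairs it was upward in 1.16%, with a median of −30.0 points (quartiles −39.3 and −21.1). Over all 70581 pairs with a dorsal pair, the dorsal shift was upward in 36.0%, with a median of −1.45 points. Dorsal shifts were not compared at pairs of like starting percentile. The median dorsal shift was thus smaller than the fissure margin's own median at rising sites, 19.4 against 32.3 points, and close to it at falling sites, −30.0 against −32.1 points. The rule chose pairs by their fissure margin shift, so a smaller median in the other tissue has no meaning of its own.

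The pairs that rose most were narrow, weak calls at HH30 inside wide HH34 peaks. On chromosome 27 a peak of 263 bp (364017 to 364279, rank 102674) lay inside an HH34 peak of 4778 bp (360686 to 365463, rank 5435), a shift of 89.3 points. On chromosome 1 a peak of 287 bp (88481952 to 88482238, rank 104129) became one of 4131 bp at rank 10275, and a peak of 214 bp (88634711 to 88634924, rank 101280) became one of 3289 bp at rank 12652. The others of the 5 largest rises lay on chromosome 25 (1357828 to 1358195, rank 106375 to 14273) and chromosome 33 (3612666 to 3612885, rank 105738 to 18323). In these 5 pairs −log10 q went from between 2.73 and 3.30 to between 8.00 and 9.79. Both dorsal lists had peaks at all 5 sites.

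The pairs that fell most shrank around a summit that stayed in place. The largest fall was on chromosome 13 (15293916 to 15294818), where a peak of 903 bp at rank 22990 became one of 143 bp at rank 104725, a shift of −78.5 points. Its −log10 q went from 13.0 to 3.64 and its summit moved by 4 bp. The next were on chromosome 3 (8279192 to 8279702, rank 25854 to 102811) and chromosome 28 (3047387 to 3048671, rank 19155 to 95629). They were followed by a second site on chromosome 3 (61734970 to 61735790, rank 23037 to 98773) and by chromosome 1 (85549274 to 85550186, rank 29025 to 103847). The summits of all 5 moved by at most 6 bp. All 5 had a dorsal peak at HH30, and only the second chromosome 3 site had one at HH34, with a dorsal shift of −44.5 points.

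Width changed in few pairs, and more of them narrowed than widened. The HH34 width was at least 1.5 times the HH30 width in 4228 pairs (5.03%) and the reverse held in 6613 pairs (7.87%), which left 73229 pairs (87.1%) within that range. The median ratio of HH34 to HH30 width was 0.985, with quartiles of 0.898 and 1.04. Widened pairs went from a median of 264 to 550 bp, and narrowed pairs from 493 to 241 bp. Area score sums over width, so rank is not independent of it: 96.1% of widened pairs moved up in rank and 97.5% of narrowed pairs moved down.

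Edges mostly moved on a single side. An edge was counted as moved when it differed by 50 bp or more between the stages. In widened pairs 71.4% had 1 moved edge and 28.3% had both, and in narrowed pairs 75.8% and 23.8%. Among all pairs 28.1% had 1 moved edge, 5.15% had both and 66.7% had none. By this 50 bp rule, widening and narrowing were thus usually on a single flank of a summit that stayed. This was not particular to them. Moves of both edges were more frequent in these pairs than over all pairs, also relative to moves of 1 edge.

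Among pairs in the upper 50% of both lists, the largest widening was on chromosome 25 (1551675 to 1551914), from 240 to 1076 bp, with 14 bp added on the left and 822 bp on the right. The pair on chromosome 19 (6069173 to 6069472) went from 300 to 1243 bp, and the one on chromosome 10 (19673850 to 19674166) from 317 to 1256 bp. Both of these grew on both flanks, by 725 and 218 bp on chromosome 19 and by 668 and 271 bp on chromosome 10. On chromosome 10 the −log10 q also went from 9.19 to 18.2, whereas on chromosome 25 it stayed near its level, at 10.3 and 10.7. Their summits moved by at most 1 bp. The largest narrowing was on chromosome 5 (10043896 to 10045295), from 1400 to 205 bp, followed by chromosome 2 at 121442297 to 121443597 (1301 to 284 bp) and at 43040952 to 43042247 (1296 to 291 bp). These 3 pairs kept their summits within 7 bp and had shifts of −27.6, −26.7 and −13.7 percentile points. They shrank on both flanks, with −163 and −1032, −370 and −647, and −446 and −559 bp added on the left and right. Of the 6 pairs named here, only the one on chromosome 25 thus had a single moved edge. All 6 sites had dorsal peaks at both stages.

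Nearly all broad peaks had a match at the other stage, which the 1 bp rule favours in a wide peak. Peaks of 2000 bp or more numbered 4147 at HH30 (3.82%) and 4315 at HH34 (4.11%). None of those at HH30 was lost, and 12 of those at HH34 were gained. Among 3561 pairs with such a peak at either stage, 64 widened and 2 narrowed by 1.5 times, and the median width ratio was 1.00. By any amount, 1816 of these pairs were wider at HH30 and 1695 at HH34. The widest peak was 15133 bp at HH30 and 31713 bp at HH34. Broad peaks at HH34 were more often the product of joining (786, or 18.2%) than broad peaks at HH30 were the source of a split (522, or 12.6%).

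Splits outnumbered joins, but joins took in more parts. The 2496 split HH30 peaks gave 5115 HH34 peaks, and 2380 of them broke into 2 parts, 110 into 3 and 6 into more, with at most 5. The 1949 joined HH34 peaks took in 4264 HH30 peaks, with 1686 sites of 2 parts, 205 of 3 and 58 of more, up to 15. Joined peaks were wider than peaks that split, with a median of 1653 against 1264 bp. The largest gap between parts had a median of 122 bp at split and 132 bp at joined sites, and neighbouring peaks of a list were never closer than 101 bp. At many of these sites a short stretch near that limit therefore decided between 1 peak and 2.

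The single peaks of these sites mostly ranked high, with 70.4% of split and 73.7% of joined peaks in the top 25% of their list. Area score sums over width, so a peak that spans several others is favoured in rank. Their parts stood lower, with a median percentile of 52.5 for HH34 parts of split peaks and 51.9 for HH30 parts of joined peaks. The strongest split was on chromosome 3 (104483253 to 104491516, 8264 bp), rank 10 at HH30, from which a part of 239 bp came off while a peak of 7736 bp remained at rank 27. On chromosome 6 a peak of 5958 bp (8603205 to 8609162, rank 22) became 2 peaks of 4756 and 1292 bp with 106 bp between them. On chromosome 1 a peak of 7723 bp (290824 to 298546, rank 26) became 3 peaks of 1822, 3558 and 2101 bp. All 3 sites kept strong calls at HH34, with a highest −log10 q of 34.6, 32.9 and 27.5.

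The strongest joined peak was on chromosome 16 (1795370 to 1810672), where 5 HH30 peaks became 1 peak of 15303 bp. It ranked 2 at HH34, and its best part had already ranked 3 at HH30 with a width of 9482 bp. On chromosome 31 (4699334 to 4711620) 3 HH30 peaks of 2143, 6620 and 2891 bp became 1 of 12287 bp at rank 7, and the best part had ranked 55. On chromosome 1 (88578930 to 88610642) 15 HH30 peaks became 1 peak of 31713 bp at rank 4, and the best part had ranked 3286. The best part of the chromosome 16 site thus already ranked near the top at HH30, whereas that of the chromosome 1 site did not. A joined peak sums its score over more width than any of its parts. The rank of a whole peak and that of a part are therefore not like measures.

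The direction of change differed between large and small chromosomes. The chicken genome consists of a few large chromosomes and many small ones, numbered roughly by size, and the small ones, called microchromosomes, are rich in genes and in G and C. On chromosomes 1 to 5, 10104 HH30 peaks (18.9%) were lost and 5651 HH34 peaks (11.4%) gained, a ratio of gained to lost of 0.559. On chromosomes 6 to 10 the ratio was 0.669, from 3140 lost and 2101 gained. On chromosomes 11 to 33 it was 1.62, from 3405 lost (10.9%) and 5505 gained (16.7%). Over all chromosomes it was 0.780. The 95% Wilson intervals of the 3 class ratios were 0.541 to 0.578, 0.633 to 0.707 and 1.55 to 1.69. They cover the counting of peaks alone and take each peak as independent, although neighbouring peaks were also lost or gained in runs. They hold no spread of libraries, so they do not test the difference between the classes. Base composition of the peaks, read depth and library preparation were not analysed here, and their part in this gradient was not tested.

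The gradient held at each level of area score below the top 25% of the lists. On chromosomes 1 to 5 the ratio of gained to lost peaks was 0.566, 0.551 and 0.487 in the parts below percentile 25, from 25 to 50 and from 50 to 75. On chromosomes 11 to 33 it was 1.41, 2.27 and 2.31. In the top 25% the counts were small, with 4 lost and 10 gained on chromosomes 1 to 5 and 1 lost and 17 gained on chromosomes 11 to 33. The excess of gains on small chromosomes was therefore not limited to the weakest calls.

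Single chromosomes spanned a wide range. Among the 29 chromosomes with at least 300 HH30 peaks, gained peaks outnumbered lost ones on 16 and lost ones outnumbered gained on 13. The lost share was highest on chromosome 2, at 20.2% (2499 of 12367), and the gained share there was 11.1%. On chromosome 25 the lost share was 3.27% (20 of 611) and the gained share 28.1% (215 of 764). On chromosome 33, 27 peaks were lost and 347 gained, and on chromosome 27 the counts were 67 and 302. Chromosomes 30 and 31 went further. Chromosome 31 lost 4 of 166 peaks and gained 126 of 253 (49.8%), and chromosome 30 lost 8 of 233 and gained 109 of 327 (33.3%). Chromosomes 25, 27 and 30 to 33 together held 3.61% of HH34 peaks and 8.13% of gained peaks.

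Ranks of the pairs moved with the counts. The median shift was −1.63 points on chromosomes 1 to 5, −1.19 on chromosomes 6 to 10 and 0.234 on chromosomes 11 to 33, and 34.1%, 37.5% and 52.8% of pairs moved up. On chromosomes 25, 27 and 30 to 33 together it was 2.64 points, with 75.8% of 2414 pairs moving up. Over the 29 chromosomes, Spearman's rho between the ratio of gained to lost peaks and the median shift of pairs was 0.982, where both measures come from the same 2 lists. Widening showed the same order, with 3.52% of pairs widened on chromosomes 1 to 5 and 8.18% on chromosomes 11 to 33, while 9.15% and 5.10% narrowed. Of the joined sites 53.2% lay on chromosomes 11 to 33, which held 31.3% of HH34 peaks, and of the split sites 27.4%. Taken as a class, chromosomes 11 to 33 thus had more peaks at HH34, and more of their pairs widened than narrowed. More of these pairs rose by 25 points (5.65%) than fell (2.91%). The typical pair there hardly changed, with a median width ratio of 1.005 next to the median shift of 0.234 points. Percentiles are relative to the list, so a class can also move up where others move down. The class was not uniform. Chromosomes 11 and 12 lost more peaks than they gained, with ratios of 0.841 and 0.693, and the median shift was below 0 on chromosomes 11 to 15 and 20. Over the 29 chromosomes the median shift was above 0 on 12 and below 0 on 17, next to a median of −0.87 points over all pairs.

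**Figure D4:**
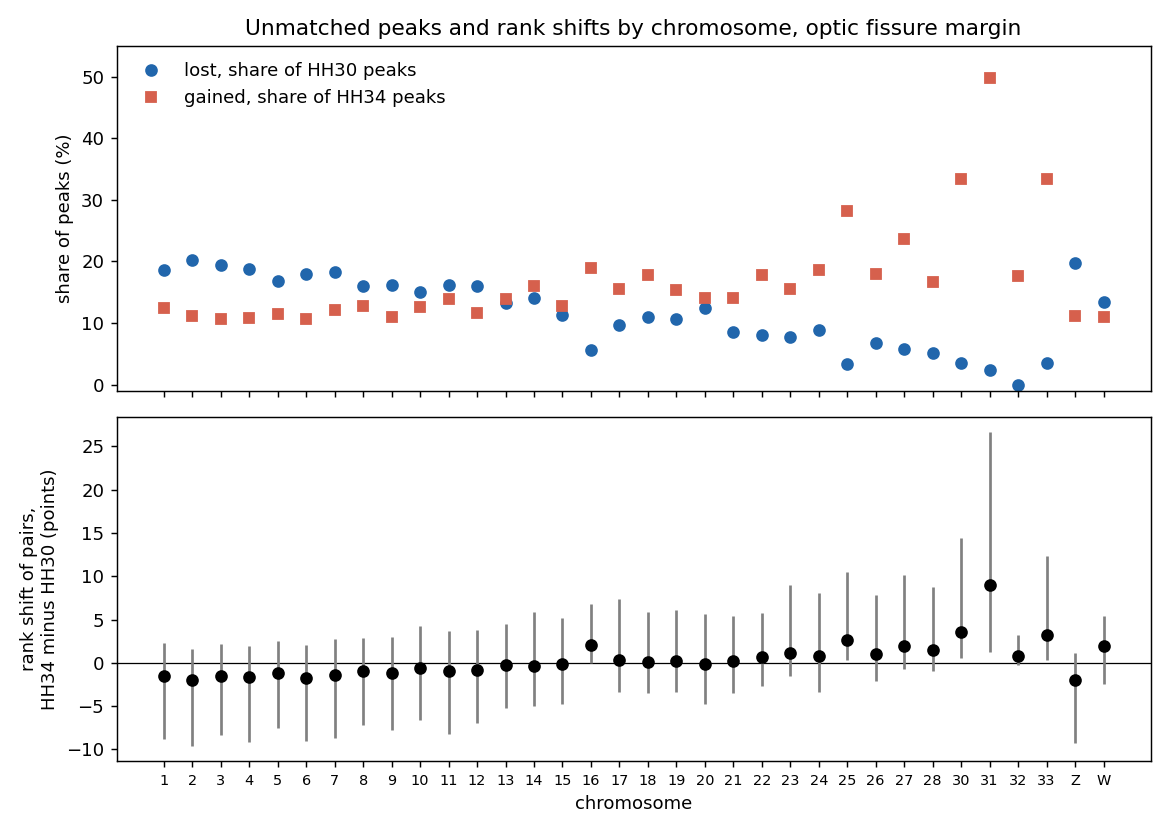
Upper panel: share of HH30 peaks lost (blue circles) and of HH34 peaks gained (red squares) on each chromosome, in %. Lower panel: median shift in rank percentile of one-to-one pairs, HH34 minus HH30, with bars from the first to the last quartile; chromosome 31 stands highest, at 9.00 points and 49.8% gained.

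The same gradient was present in dorsal retina, with ratios of gained to lost peaks of 0.533 on chromosomes 1 to 5, 0.634 on chromosomes 6 to 10 and 1.47 on chromosomes 11 to 33. Both tissues thus had it. On the sex chromosome Z, 1026 peaks were lost (19.7%) and 531 gained (11.1%) in the fissure margin, a ratio of 0.518 next to 0.542 in dorsal retina. Pairs on Z had a median shift of −1.96 points. W held 97 peaks at HH30 and 91 at HH34, with 13 lost and 10 gained.

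Change was also counted along the chromosomes. In windows of 500 kb with at least 20 peaks at both stages, 1187 of 1744 (68.1%) had more lost than gained peaks and 472 (27.1%) more gained. On chromosomes 1 to 5 these numbers were 742 and 173 of 976 windows, and on chromosomes 11 to 33 they were 140 and 224 of 374. Windows that gained peaks also held pairs that moved up, with a Spearman's rho of 0.658 between the balance of gained and lost peaks and the median shift of pairs. The net number gained in fissure margin and in dorsal retina had a rho of 0.734 over windows. Windows of a chromosome share base composition and libraries, so these values are descriptions.

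The largest surplus of lost peaks was on chromosome 8 (13500001 to 14000000), where 27 of 85 HH30 peaks (31.8%) were lost and none of 60 HH34 peaks was gained. A window on chromosome 1 (34000001 to 34500000) lost 23 of 80 and also gained none of 59. A window on chromosome 2 (8500001 to 9000000) lost 29 of 91 and gained 6 of 70. The lost shares of 28.8% to 31.9% stood above the 16.3% of the whole list. Pairs in these windows had median shifts between −4.71 and −2.87 points.

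The windows with the largest surplus of gained peaks went further. On chromosome 33 (3000001 to 3500000) 74 of 142 HH34 peaks (52.1%) were gained and 3 of 75 HH30 peaks lost. On chromosome 24 (2000001 to 2500000) 56 of 167 (33.5%) were gained and 2 of 115 lost. On chromosome 18 (11000001 to 11500000) 53 of 81 (65.4%) were gained and none of 37 lost, and its 22 pairs had a median shift of 29.4 points. The gained share was 13.1% over the whole HH34 list, and 33.5%, 18.6% and 17.8% over the whole of chromosomes 33, 24 and 18. In dorsal retina 50, 56 and 35 peaks were gained in these windows and 3, 7 and 1 lost. The numbers of dorsal peaks in these windows are not given here, so no dorsal share can be stated.

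Most lost and gained peaks stood alone among their neighbours, and the kinds differed only in their few longest runs. Of 13913 runs of lost peaks 11040 were single peaks, 2200 had 2, 673 had 3 or more and the longest had 8. Of 10747 runs of gained peaks 8812 were single peaks, 1435 had 2, 500 had 3 or more and the longest had 42. Runs of 5 or more numbered 50 for lost and 118 for gained peaks. Short runs were thus more numerous for lost peaks and the rare long runs for gained peaks.

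The longest runs of lost peaks each held 8 and were found at 156271997 to 156368776 of chromosome 1, at 63902235 to 63915385 of chromosome 3 and at 13484814 to 13521388 of chromosome 8. The last of these reaches into the chromosome 8 window with the largest surplus of lost peaks. Of the 8 peaks on chromosome 1, 6 had a dorsal peak at HH30 and none at HH34, and the strongest stood at percentile 65.5. On chromosome 3 only 1 of 8 had a dorsal peak at HH30, and none had one at HH34. On chromosome 8, 5 of 8 had a dorsal peak at HH30 and 2 had one at HH34. Over all lost peaks the shares were 50.8% at HH30 and 9.77% at HH34. The chromosome 1 run thus had counterparts in dorsal retina at the earlier stage, and the chromosome 3 run had almost none.

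The longest run of gained peaks, 42 peaks on chromosome 27 (396899 to 1010130), spanned 613232 bp. Next came 31 peaks within 29234 bp on chromosome 11 (20023714 to 20052947) and 17 within 17232 bp on chromosome 33 (3031528 to 3048759). Dorsal peaks at HH34 overlapped 38, 29 and 16 of these, and dorsal peaks at HH30 overlapped 11, 15 and 9. The runs on chromosomes 11 and 33 were thus dense clusters, and the run on chromosome 27 was a wide stretch in which the fissure margin had no peak at HH30.

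Several of the sites described above were neighbours. Named sites and runs, 38 in all, were grouped where they lay within 500 kb of each other, a grouping chosen after their positions had been seen. It gave 5 loci that held 13 of them, on chromosomes 1, 11, 25, 27 and 33, and every one of the 13 had been named for a gain, a rise, a widening or a join. More covered sequence at HH34 and few lost peaks in the fissure margin follow from that choice and are given as a description. On chromosome 27 (356648 to 1010130) the covered length went from 9839 bp in 16 peaks to 54304 bp in 54 peaks, a ratio of 5.52, and 49 of the 54 were gained. On chromosome 33 (3577762 to 3613241) it went from 3023 bp in 7 peaks to 25311 bp in 28 peaks, a ratio of 8.37. On chromosome 11 (19661293 to 20052947) and chromosome 25 (1357735 to 1552736) the ratios were 1.81 and 1.68. None of these loci lost more than 2 peaks.

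The dorsal lists played no part in naming these sites. In dorsal retina the covered length on chromosome 27 was 32261 bp at HH30 and 56389 bp at HH34, a ratio of 1.75. On chromosome 33 it was 13492 and 23523 bp, a ratio of 1.74. On chromosomes 11 and 25 the dorsal ratios were 1.44 and 1.42, so both tissues covered more at HH34 at these 4 loci. At HH34 the tissues were thus close, with 54304 and 56389 bp on chromosome 27 and 25311 and 23523 bp on chromosome 33, while at HH30 the dorsal list covered more. On chromosome 11 the HH30 lists were closer to each other, with 36122 bp in the fissure margin and 48082 bp in dorsal retina, than to the HH34 lists, with 65504 and 69262 bp. Mappability of these loci was not analysed here. Without values per library, it cannot be told whether all 3 HH30 fissure margin libraries were low there.

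The chromosome 1 locus (88481442 to 88636917) held 4 of these sites: the joined peak of 31713 bp, the strongest gained peak just to its right and a rising pair at each end. In the fissure margin 33 peaks covered 43400 bp at HH30 and 28 peaks covered 86994 bp at HH34, a ratio of 2.00, with 18 of the HH34 peaks gained and no peak lost. At the joined peak itself the HH30 list had 15 pieces that together covered 23452 bp, with a highest −log10 q of 8.67, against 16.5 at HH34. The HH30 dorsal list already had 4 pieces covering 30320 bp there, the largest 25552 bp wide at rank 9, and at HH34 it had 1 peak of 31678 bp at rank 5. The dorsal peak at HH34 thus had nearly the same extent as that of the fissure margin. Within the span of this peak, the HH30 fissure margin list was in the most pieces of the 4. Over the whole locus the HH30 dorsal list held more peaks, 37 against 33.

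**Figure D5:**
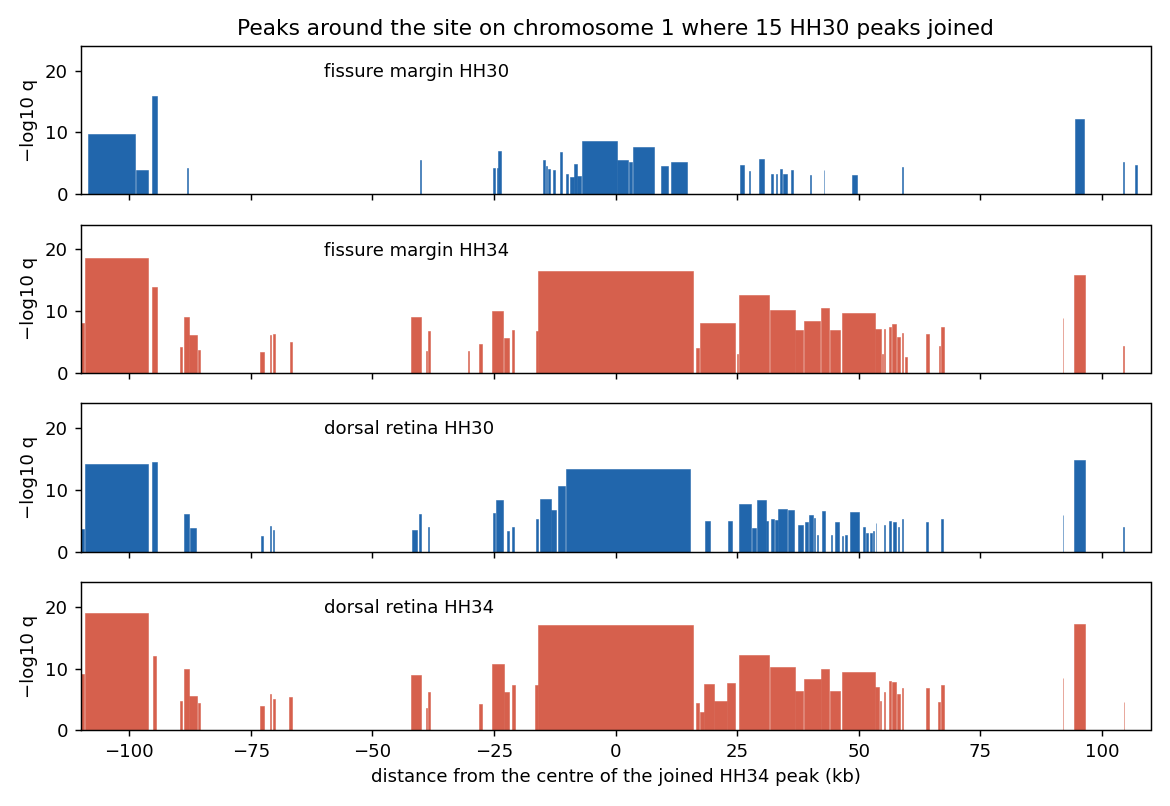
Peaks of the 4 lists within 110 kb either side of the joined chromosome 1 peak, drawn to scale by distance from its centre in kb, with bar height showing −log10 q at the summit. The HH30 fissure margin list (top) has 38 peaks covering 46958 bp in this view, against 45 covering 105736 bp at HH34 (second). In dorsal retina 56 peaks cover 78381 bp at HH30 (next) and 45 cover 104471 bp at HH34 (bottom).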

How the data were processed

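Open chromatin was measured by omni-ATAC-seq with 75 bp paired-end reads, at least 189 M per library, per the labels' protocols; depth per library was not used. Peaks were called jointly per group with Genrich, per the labels. The submitters' processing notes also name cutadapt 1.16, Bowtie2 2.3.4.3, SAMtools 1.6, Genrich 0.6 and deepTools 3.5.0, and the builds galGal6 and GRCg6a; filters and Tn5 shifting are not given in the sources used here. Peaks passed the last gene of the GRCg7b table on 25 of 34 chromosomes, so no gene of it was placed. Coordinates are those of the lists, counted from 1, on 34 chromosomes.

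The lists have narrowPeak column order. The area score is the authors' deposited signal value, of unrecorded scale, and was ranked only within a list. The −log10 q is the authors' deposited value at the summit. A second deposited score, limited to 1000, was not used. Positions, widths and summits are the authors' deposited coordinates.

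Peaks were matched, and sites classified, in Python 3.11.15 with pandas 2.3.3, numpy 2.4.6 and scipy 1.17.1. No test was run, since joint calling leaves no replicate value. Classification was tested on simulated data, where all 20000 simulated sites of 7 kinds were recovered. These sites were well separated and none had several peaks at both stages, so this checks the code and not the calls. Named sites were those with the best rank, the largest shift or width ratio, the longest runs and the fullest windows. Members, lists and rules were chosen with earlier results of these data known.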

Additional observations from a re-analysis of the deposited data

How the results depend on the processing

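The counts depended most on which peaks were allowed in. With the upper 50% of both lists, 7792 peaks were lost, 6006 gained, 674 split and 629 joined; searched against the whole other list, the upper 50% gave 706 lost and 633 gained. Shorter lists give fewer by construction. Reciprocal overlap of 50% raised lost peaks to 26355 and gained peaks to 22769. Matching by summits at most 200 bp apart gave 22809 lost and 19223 gained peaks. Asking for no peak within 1000 bp lowered them to 12390 and 8502. A width ratio of 2 left 1787 widened and 2538 narrowed pairs, and both peaks in the upper 50% left 893 and 1964. A shift of 10 points gave 11835 rising and 16401 falling pairs. Ranking by −log10 q, by area score over width or among the pairs kept both counts within 1.5 times of the main ones. Among the pairs, however, more rose (3860) than fell (3222), against 3367 and 4048. The order of these counts thus depends on whether peaks outside the pairs are ranked too. All 10 named pairs kept their direction and at least 25 points under these 3 rankings. They had been chosen as the largest shifts by area score, and these rankings use that score or the same calls. This outcome was thus favoured by the choice and is no separate support.

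The ratio of gained to lost peaks stayed on its side of 1 on chromosomes 1 to 5, 6 to 10, 11 to 33 and Z in each setting run. At 50% reciprocal overlap it was 0.719, 0.808, 1.22 and 0.666 in that order. In the upper 50% against the whole other list it was 0.506, 0.766, 2.43 and 0.531, and at equal list length 0.692, 0.840, 2.05 and 0.645. On W it was 1.00 at equal length. Without chromosomes 25, 27 and 30 to 33, left out after the data had been seen, chromosomes 11 to 33 gave 1.34.

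No paired analysis was possible because peaks were called jointly and the lists hold no value per replicate; leaving out replicates was not run for the same reason. Depth and the fixed minimum of the area score limit what a missing peak shows: it is a missing call and not shown to be closed chromatin.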

Other observations

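Among lost and gained peaks, the overlap with dorsal retina differed more on Z than between the numbered chromosomes. Among lost fissure margin peaks, those without any dorsal peak made up 49.6% on chromosomes 1 to 5, 43.7% on chromosomes 11 to 33 and 62.0% on Z. Among gained peaks, those at sites with dorsal peaks at both stages made up 33.2%, 37.0% and 23.4% in the same order. Of these classes Z had the highest share of changed sites with no dorsal counterpart in both directions, 62.0% of 1026 lost and 29.8% of 531 gained peaks. The share over all peaks on Z is not given here, so it cannot be told whether changed sites there differ from the other peaks of Z. These shares were not tested.

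Among 500 kb windows with at least 20 pairs, the highest median shift was 33.5 points, on chromosome 27 (2000001 to 2500000), where 40 of 92 HH34 peaks were gained and none of 79 HH30 peaks was lost. The lowest was −13.0 points, on chromosome 6 (10500001 to 11000000), with 12 of 41 lost and 3 of 33 gained. Over the whole of chromosome 27, 23.6% of HH34 peaks were gained, and over chromosome 6, 18.0% of HH30 peaks were lost. These windows were chosen after their values were seen.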
